A study of Homo sapiens with 32 samples.

Results

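Constitutive distal H3K27ac regions were defined as consensus regions farther than 3000 bases from every protein-coding transcription start site and under 12000 bases wide that overlapped, by at least 1 base, a broad peak in each of 16 libraries. Of 92108 consensus regions 12845 (13.9%) met this rule. The members were thus chosen by peak presence in the 16 libraries, so their detection in every group is a condition of entry and not a result, and a region that lost its peak in even 1 library is not among them. Just inside the limits stood a member 3002 bases from a start site and one 11999 bases wide, and just outside were regions at 2998 bases and of 12001 bases. A further 3387 distal regions under 12000 bases had a peak in 15 libraries, and their median DMSO concentration was 4.67 on a log2 scale per kilobase, against 5.27 for the members.

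The libraries were H3K27ac ChIP-seq of SK-N-BE(2)C, an established human neuroblastoma line of adrenergic type with amplified MYCN. Cells were kept for 5 days in palbociclib (PB, 1 µM), which inhibits the cyclin D-dependent kinases CDK4 and CDK6, in retinoic acid (RA), in PB+RA, or in DMSO, the solvent. Each group had 4 ChIP libraries. The study's methods define biological replicates as separately plated cultures of different passage, so the spread between libraries is that of cultures of a single line.

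Enhancers are stretches of DNA, often far from the genes they act on, where transcription factors bind and recruit acetyltransferases such as p300 and CBP. These enzymes acetylate lysine 27 of histone H3 on the neighbouring nucleosomes, and the mark is lost when deacetylases act or the factors leave. H3K27ac also lies at active promoters, so distance from a start site is used to set candidate enhancers apart. In neuroblastoma of the adrenergic type, HAND2, GATA3, ISL1 and related factors bind each other's enhancers and form a core regulatory circuitry, and retinoic acid, which acts through RAR and RXR receptors, is used to drive such cells to differentiate.

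The members' sequences are shown first for the regions on which the results turn: those with the largest tested increase and decrease with PB, the second largest decrease with PB+RA (after LYN), the most enriched member and the steadiest of the strong members. Each is the central 300 bases of the region (hg19, plus strand, read from GRCh37). Capitals mark AGATAA (the core read by GATA factors), TAATTA (homeodomain factors), CAGATG and CAGCTG (E-boxes, read by bHLH factors such as HAND2), TGANTCA (AP-1) and AGGTCA (the single site of nuclear receptors such as RAR and RXR) on either strand, with overlaps allowed.
PB increase near NSMCE3, chr15:29518686-29518985: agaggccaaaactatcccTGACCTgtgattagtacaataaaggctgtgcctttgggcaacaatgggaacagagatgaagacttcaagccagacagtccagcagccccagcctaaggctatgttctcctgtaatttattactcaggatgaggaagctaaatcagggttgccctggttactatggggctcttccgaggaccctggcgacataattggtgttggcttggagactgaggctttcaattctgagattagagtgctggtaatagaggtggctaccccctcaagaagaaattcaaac
PB decrease near ZBED5, chr11:10952939-10953238: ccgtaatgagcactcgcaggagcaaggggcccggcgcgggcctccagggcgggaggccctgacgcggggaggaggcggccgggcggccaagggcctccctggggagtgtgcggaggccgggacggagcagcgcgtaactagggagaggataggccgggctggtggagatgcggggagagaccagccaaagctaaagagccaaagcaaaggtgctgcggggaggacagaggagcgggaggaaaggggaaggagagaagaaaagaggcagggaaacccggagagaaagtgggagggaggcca
PB+RA decrease in CSPG4, chr15:75987890-75988189: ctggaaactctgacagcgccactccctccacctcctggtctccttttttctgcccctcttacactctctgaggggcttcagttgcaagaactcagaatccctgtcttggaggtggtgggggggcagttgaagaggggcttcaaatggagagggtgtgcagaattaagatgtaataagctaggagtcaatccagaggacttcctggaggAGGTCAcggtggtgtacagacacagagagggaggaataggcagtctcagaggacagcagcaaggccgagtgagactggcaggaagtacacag
Highest enrichment, at DLEU2, chr13:50699258-50699557: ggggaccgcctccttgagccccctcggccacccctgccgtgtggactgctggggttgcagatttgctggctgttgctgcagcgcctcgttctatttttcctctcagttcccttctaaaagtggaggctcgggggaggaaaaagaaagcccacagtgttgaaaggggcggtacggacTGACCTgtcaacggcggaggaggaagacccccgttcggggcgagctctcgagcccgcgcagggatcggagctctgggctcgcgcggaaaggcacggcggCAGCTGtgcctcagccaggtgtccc
Steadiest of the strong regions, beyond HDGFL1, chr6:23003926-23004225: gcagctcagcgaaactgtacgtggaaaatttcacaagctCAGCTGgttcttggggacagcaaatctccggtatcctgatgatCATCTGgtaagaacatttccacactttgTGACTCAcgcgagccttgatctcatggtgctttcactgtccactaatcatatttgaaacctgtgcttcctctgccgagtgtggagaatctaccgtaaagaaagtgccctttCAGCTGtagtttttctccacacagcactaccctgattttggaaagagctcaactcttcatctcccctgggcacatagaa

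The steadiest region held 1 CAGATG and 2 CAGCTG E-boxes and 1 AP-1 sequence. The windows near NSMCE3 and in CSPG4 held 1 AGGTCA each, the DLEU2 window 1 AGGTCA and 1 CAGCTG E-box, and the one near ZBED5 none of the 6. In the central 300 bases of all members, AGATAA was present in 20.5%, against 18.8% of all regions that could be read from the reference. TAATTA was present in 10.3% of members against 9.42% of all regions, CAGATG in 22.7% against 22.4%, CAGCTG in 17.1% against 18.3%, TGANTCA in 11.8% against 11.6% and AGGTCA in 19.0% against 18.9%. The TEAD core GGAATG was present in 15.6% against 15.8%, the E2F sequence TTTGGCGC in 0.125% against 0.186% and the CRE TGACGTCA in 0.296% against 0.268%. The exact DR5 retinoid element (AGGTCA repeated after 5 bases) was found in 2 members, and the CTCF consensus in 6. These shares describe letters in a window and say nothing of which factors were bound.

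The members had a median width of 4163 bases, and the median distance to a protein-coding start site was 40450 bases. Introns of protein-coding genes held 6149, exons 555, and 6141 lay outside protein-coding genes. Beyond 100 kb from any protein-coding start site were 3556 (27.7%), and these are given below by position. The other 9289 had as nearest gene one of 4755 genes, 2722 of which had a single member and 327 at least 5. The median GC content was 45.0% in members, against 52.7% in the 12366 start-site constitutive regions (within 3 kb of a protein-coding start site, with a peak in all 16 libraries) and 45.3% in the 58011 distal regions under 12 kb without a peak in every library. DMSO concentration, the authors' log2 normalized read count averaged over the group and here divided by region length, had a median of 5.27 per kilobase in members, 6.75 in start-site constitutive regions and 4.24 in the other distal regions. Having a peak in all libraries was the condition for entry, so these levels are a description without a test.

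The members are candidate enhancers by distance from protein-coding start sites alone, and not all lay far from every annotated start site. Enhancer activity was not measured. A start site of some annotated transcript, noncoding ones included, lay within 3 kb of 3647 members (28.4%). Divided into 4 equal classes by concentration per kilobase, averaged over the 4 groups, that share was 36.0% in the highest class and 22.9% to 30.5% in the others. Regions named below were among them. Most named RA increases overlapped such a start site. So did the regions named for PPP2R1B, SLC30A5, RHOU, PRODH, ACTA1, SSU72L5, CHGA, GRIN1 and ACSF3, and the SOX4 region at chr6:21520361-21524655. Others, such as those near RXRA and PPP1R1B, lay within 3 kb of one. Of the 6 members named for the highest fold enrichment in DMSO, SOX4 alone lay farther than 3 kb from any start site. The first, outside protein-coding genes at chr13:50697005-50701810, overlapped a start site of DLEU2, a noncoding gene that hosts microRNAs, and read 31.3, 35.3, 10.0 and 8.39 in the PB libraries, 33.8, 33.4, 24.1 and 23.5 in the RA libraries, 30.0, 29.6, 8.42 and 17.4 in the PB+RA libraries, and 34.1, 41.8, 34.0 and 31.3 in the DMSO libraries. PB replicates 3 and 4 and PB+RA replicate 3 were far below the rest. Its log2 difference was -1.02 with PB (adjusted p = 0.0669) and -0.27 with RA (adjusted p = 0.713), and it fell by 0.97 with PB+RA (adjusted p = 0.0439). The third, at chr13:91999178-92004524, overlapped a start site of MIR17HG, which hosts a microRNA cluster, and was nearest to GPC5 among protein-coding genes. MIRLET7IHG had such a member as well, at chr12:62995177-63000024, with 27.1, 28.8, 32.5 and 19.9 in the DMSO libraries. The fourth, at chr6:21586594-21590506, lay 3476 bases from SOX4, a SOX-family transcription factor gene, and read 32.9, 37.2, 24.2 and 17.8 in the PB libraries, 33.1, 34.4, 22.7 and 24.3 in the RA libraries, 36.9, 32.3, 25.7 and 34.2 in the PB+RA libraries, and 26.5, 35.8, 32.5 and 26.6 in the DMSO libraries. All groups overlapped, and no treatment passed the limma test there (adjusted p = 0.604 with PB, 0.905 with RA and 0.991 under PB+RA).

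Overlap of a peak in every library did not mean that the same bases were marked. At least 1 base lay under a peak of all 16 libraries in 11069 members (86.2%), with a median of 748 such bases. The other 1776 members were covered by peaks at different bases in different libraries. At the region centre, 68.9% to 85.4% of members lay under a peak, the lowest in PB replicate 4 and the highest in DMSO replicate 4. The median share of a member's length covered by peaks was 58.8, 61.5, 51.2 and 45.0% in the PB libraries, 53.8, 58.8, 55.4 and 58.0% in the RA libraries, 60.8, 47.0, 59.6 and 54.0% in the PB+RA libraries, and 54.3, 65.2, 48.9 and 68.1% in the DMSO libraries. The groups overlapped throughout. The differences from DMSO were -5.01 percentage points with PB (p = 0.457), -2.65 with RA (p = 0.543) and -3.79 under PB+RA (p = 0.486) in two-sided exact permutation tests, with an adjusted p of 0.543 for each.

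**Figure D1:**
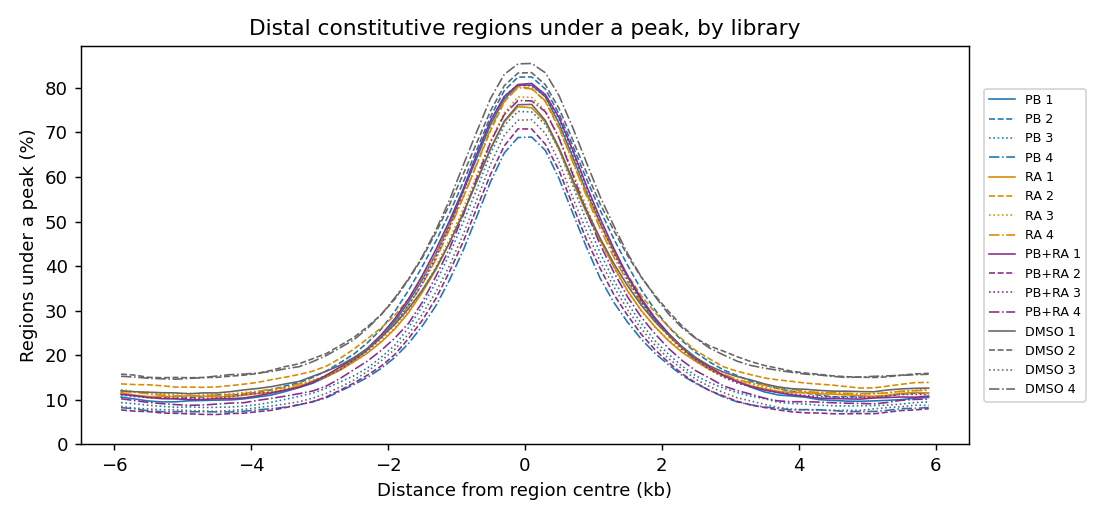
Share of the 12845 distal constitutive regions that lay under a peak (y axis, %) by distance from the region centre (x axis, kb), with 1 line per library in the colour of its group. At the centre the lines span 68.9% to 85.4%, with DMSO libraries both near the top and near the bottom.

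Fold enrichment over input, the height the peak caller gave each peak, was read in each library as the mean over the peak bases inside a region. Its median over the members was 4.86, 5.01, 4.18 and 3.93 in the PB libraries, 4.31, 4.31, 3.86 and 4.07 in the RA libraries, 5.13, 4.49, 4.62 and 4.35 in the PB+RA libraries, and 4.06, 4.36, 4.07 and 4.04 in the DMSO libraries. The PB+RA mean was 0.513 above the DMSO mean, with the lowest PB+RA library just under the highest DMSO library (p = 0.0571, adjusted p = 0.171 over the 3 treatments, exact permutation test). With PB the difference was 0.361 (p = 0.314, adjusted p = 0.471) and with RA 0.00371 (p = 0.943, adjusted p = 0.943) in the exact permutation test. Start-site constitutive regions of the same libraries had medians of 6.72 to 13.0. PB replicates 3 and 4 and PB+RA replicate 3 stood apart there with 7.97, 6.72 and 7.97, the 3 lowest of the 16.

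The members were therefore read against start-site regions within each library. The log2 difference, distal minus start-site median, was -1.233, -1.221, -0.932 and -0.774 in the PB libraries, -1.235, -1.242, -1.276 and -1.282 in the RA libraries, -1.169, -1.26, -0.788 and -1.247 in the PB+RA libraries, and -1.172, -1.34, -1.675 and -1.438 in the DMSO libraries. The means exceeded the DMSO mean by 0.366 with PB and 0.29 with PB+RA, but no treatment passed the exact permutation test (p = 0.0857 and adjusted p = 0.129 for both). With RA the excess was 0.148 (p = 0.257, adjusted p = 0.257, exact permutation test). The smallest p that 4 against 4 libraries can give is 0.0286. Without the 3 libraries that stood apart, the excess was 0.179 with PB and 0.181 with PB+RA. When each of 10 GC classes was centred separately, the PB excess became 0.141 (p = 0.286), the RA excess 0.0461 (p = 0.6) and the PB+RA excess 0.023 (p = 0.771) in the exact permutation test.

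**Figure D2:**
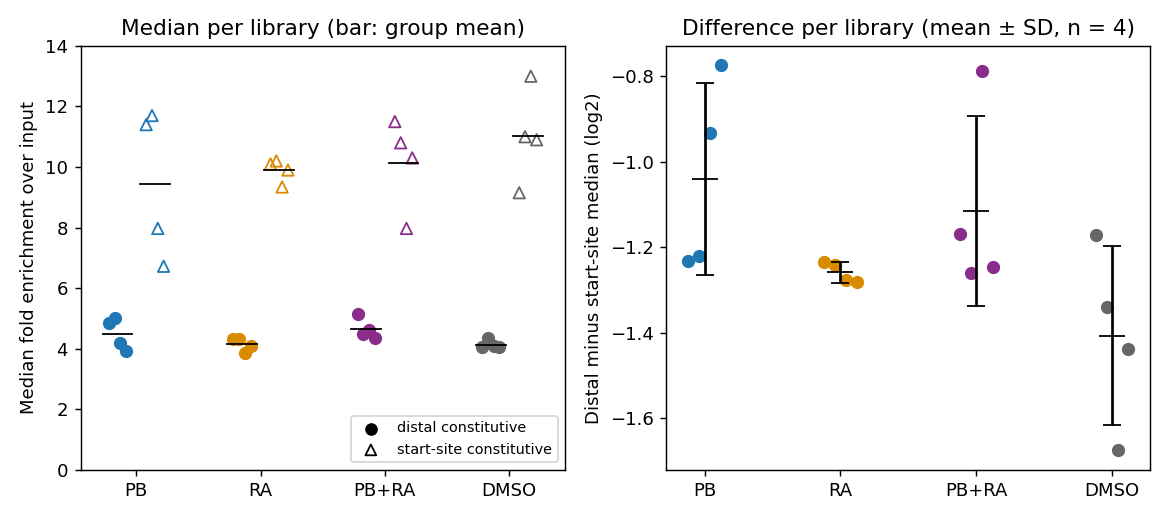
Left, median fold enrichment over input of distal constitutive (filled) and start-site constitutive regions (open) in each library, with group means as bars. Right, the log2 difference of the medians per library with mean ± SD (n = 4): PB and PB+RA libraries reach up to -0.774 and -0.788, and 1 DMSO library is lowest at -1.675.

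Group mean concentrations of the members moved in both directions under each treatment, and the median member moved little. With PB, 2333 members were higher than DMSO by over 0.5 on the log2 scale and 2137 were lower by over 0.5, which is 18.2% and 16.6% of the members against 21.0% and 26.8% of all 92108 regions, and the median difference was 0.0168. With RA, 2526 were higher (19.7%, against 27.9% of all regions) and 3190 lower (24.8%, against 21.5%), with a median of -0.0945. With PB+RA, 3875 were higher (30.2%, against 32.1%) and 3029 lower (23.6%, against 31.7%), with a median of 0.0754. Over all regions the medians were -0.0906, -0.00931 and -0.0162 with PB, RA and PB+RA. These are differences of group means with no replicate error, and they share the DMSO group. The split depended on the scale. Centred on the median of all regions, 2975 members were higher and 1595 lower with PB. Centred within 10 classes of GC content, 1852 were higher and 3821 lower with RA, and 2741 higher and 3762 lower with PB+RA.

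The range between the highest and lowest of the 4 group means was at most 0.5 in 2338 members (18.2%, against 12.9% of all regions), at most 1 in 7933 (61.8%, against 46.1%) and at most 2 in 12464 (97.0%, against 89.5%). A peak in all 16 libraries was required of the members and not of all regions, so these shares are a description. The median range was 0.855 in members, 0.6 in start-site constitutive regions and 1.2 in the other distal regions. The steadiest of the strong members, at chr6:23002632-23005518 and 432837 bases from HDGFL1, had log2 concentrations of 7.4, 7.45, 7.46 and 7.47 in PB, RA, PB+RA and DMSO. Its fold enrichment was 6.23, 5.7, 4.28 and 3.93 in the PB libraries, 5.73, 5.11, 4.81 and 4.76 in the RA libraries, 5.67, 4.28, 5.05 and 5.3 in the PB+RA libraries, and 4.06, 5.49, 5.5 and 5.01 in the DMSO libraries. Other steady members lay at chr4:45345784-45350399, in an intron of NREP, near LYST (lysosomal trafficking regulator), near EIF4A2 (an RNA helicase of translation initiation) and near BDH1 (a ketone body dehydrogenase), each with a range of at most 0.09.

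**Figure D3:**
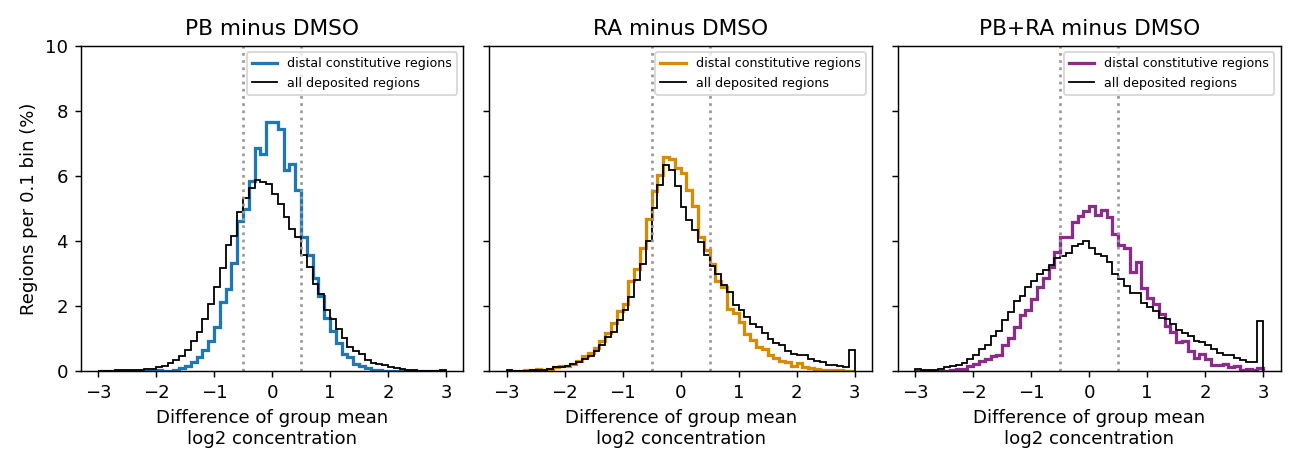
Distribution of the treated minus DMSO difference of group mean log2 concentration for PB, RA and PB+RA, as the percentage of regions in bins of 0.1 (y axis), in distal constitutive regions (coloured) and all deposited regions (black). Values past the ends of the axis are in the end bins, dotted lines mark -0.5 and 0.5, and the PB+RA curve of the members is the widest of the coloured curves, with 30.2% above and 23.6% below these lines.

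Differences of group means were tested with limma on log2 fold enrichment, against the spread of single libraries. Values were centred per library, and all 26499 regions with a peak in every library were tested. A region was called at a Benjamini-Hochberg adjusted p under 0.05 and a log2 difference over 0.5. With PB, 469 members were higher (3.65%, against 2.26% of all tested regions) and 174 lower (1.35%, against 4.61%). With RA, 708 were higher (5.51%, against 4.03%) and 485 lower (3.78%, against 3.22%). With PB+RA, 1466 were higher (11.4%, against 7.72%) and 800 lower (6.23%, against 10.2%). The called members changed by a median of 1.51-fold and 1.6-fold with PB, 1.54-fold and 1.54-fold with RA, and 1.57-fold and 1.57-fold with PB+RA, higher and lower calls in turn. In 9869 members (76.8%) none of the 3 comparisons passed, against 77.3% of all tested regions.

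The balance of higher and lower calls depended on what the libraries were centred on, and was reversed with the members alone centred and tested. That centring takes out any shift of the members' median. It gave 204 higher and 319 lower with PB, 593 and 612 with RA, and 1033 and 1184 under PB+RA. Without centring the counts were 303 higher and 89 lower with PB, 466 and 499 with RA, and 2012 and 506 with PB+RA. Quantile normalization gave 401 and 153 with PB, 556 and 522 with RA, and 1374 and 712 with PB+RA. Start-site constitutive regions, which share the centring with the members, had 0.687% higher and 8.47% lower calls with PB, 1.75% and 2.26% with RA, and 2.98% and 14.6% under PB+RA. The difference between members and start-site regions did not pass the test per library given above. Without the 3 libraries that stood apart, 375 members were higher and 194 lower with PB, and 1359 and 962 with PB+RA.

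**Figure D4:**
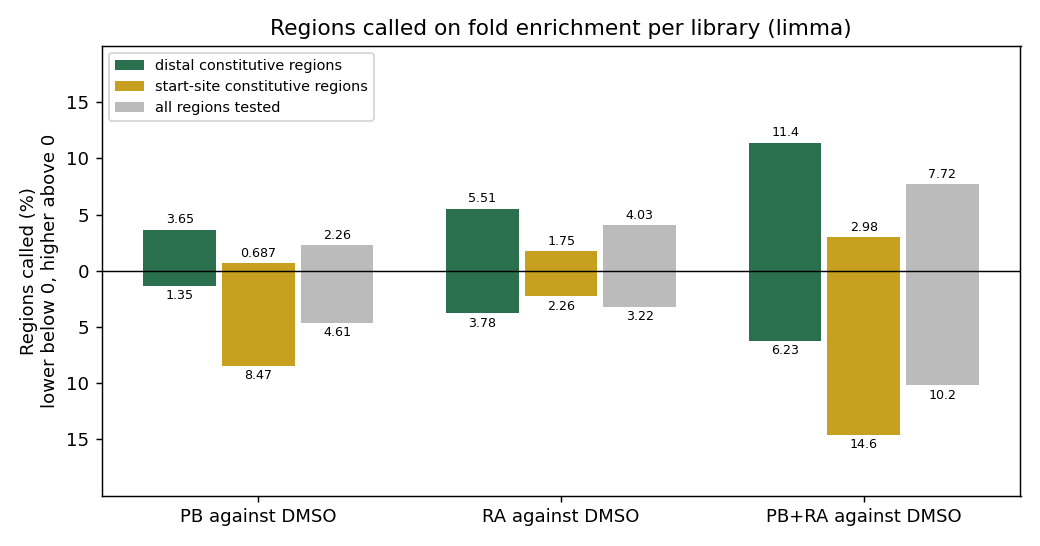
Percentage of regions called higher (above 0) and lower (below 0) on log2 fold enrichment per library with PB, RA and PB+RA against DMSO, in distal constitutive regions, start-site constitutive regions and all regions tested. Distal constitutive regions had more higher than lower calls under each treatment, 3.65% and 1.35% with PB, a balance that was reversed when the members alone were centred and tested.

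Called members differed among themselves in base composition and place. Those lower with PB had a median GC content of 56.8%, a median width of 2532 bases and a median DMSO fold enrichment of 8.89, and 88 of 174 (50.6%) lay within 3 kb of a start site of some transcript. Those higher with PB had 43.6% GC, 4590 bases and a DMSO fold enrichment of 3.59, and 27.5% lay near such a start site. DMSO fold enrichment is part of the comparison that made the calls, so part of its difference between them follows from the calls. With PB+RA, GC content was 41.7% in members called higher and 52.0% in those called lower, and with RA 42.4% and 47.6%. Centred within GC classes, 406 members were higher and 112 lower with PB, 569 and 529 with RA, and 1058 and 809 under PB+RA. Beyond 100 kb from any protein-coding start site, 4.36% of 3556 members were higher and 0.675% lower with PB, and 13.9% and 4.3% with PB+RA. Between 3 and 10 kb, 2.99% of 2006 members were higher and 1.94% lower with PB, and 9.12% and 7.33% with PB+RA. GC content moved with distance too, with a median of 40.9% beyond 100 kb and 49.4% within 10 kb, and its part in this pattern was not tested.

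The letters at the members' centres were also counted in each called group, beside the GC contents just given. AGATAA was present in 24.5% of members called higher and 7.47% of those called lower with PB, 21.2% and 20.2% with RA, and 23.5% and 14.5% under PB+RA. TAATTA was present in 12.2% and 4.6% with PB, 11.0% and 10.3% with RA, and 12.2% and 6.25% under PB+RA. TGANTCA was present in 13.4% and 6.9% with PB, 16.1% and 11.1% with RA, and 13.9% and 7.88% under PB+RA. For AGGTCA the shares were 19.6% and 11.5% with PB, 20.2% each with RA, and 19.2% and 17.2% under PB+RA. For CAGATG they were 22.8% and 12.6% with PB, 21.6% and 26.4% with RA, and 22.7% and 20.4% under PB+RA. CAGCTG was rarer in members called higher, at 16.2% and 20.7% with PB, 16.2% and 22.1% with RA, and 14.8% and 20.2% under PB+RA. No test was made of these shares, and the part of base composition in them was not tested.

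The strongest increases with PB were at regions near genes of several kinds. At chr15:29516989-29520681, in an intron of ENTREP2 and 41345 bases from NSMCE3, which encodes a subunit of the SMC5-SMC6 complex, fold enrichment was 11.1, 9.11, 10.2 and 7.31 in the PB libraries, 6.55, 6.8, 5.49 and 6.49 in the RA libraries, 11.0, 7.92, 10.6 and 7.8 in the PB+RA libraries, and 3.15, 4.78, 3.06 and 4.95 in the DMSO libraries. No treated library overlapped DMSO there. The log2 difference was 1.25 ± 0.16 (SE) with PB (adjusted p = 0.000152), 0.74 with RA (adjusted p = 0.00379) and 1.16 under PB+RA (adjusted p = 2.87e-05), all from limma. At chr9:114740063-114744959, 80969 bases from UGCG, the glucosylceramide synthase gene, the values were 11.9, 9.01, 5.57 and 6.98 in the PB libraries, 3.93, 3.67, 2.97 and 4.15 in the RA libraries, 8.97, 5.9, 6.47 and 5.92 in the PB+RA libraries, and 3.32, 3.83, 3.84 and 3.62 in the DMSO libraries. The UGCG region rose by 1.13 ± 0.14 with PB (adjusted p = 0.000152) and by 0.80 with PB+RA (adjusted p = 0.00031), and its RA difference was 0.04 (adjusted p = 0.908). Further PB increases lay in an intron of ARMC2 nearest to SESN1 (1.09), a stress-induced regulator of mTORC1, at PPP2R1B (1.04), a scaffold subunit of protein phosphatase 2A, at LRRC20 (1.03), near SLC30A5 (0.97), a zinc transporter, and in an intron of PTPRN2 at chr7:158030530-158034025 (1.04), a dense-core vesicle phosphatase-like protein. One more stood at chr8:128954984-128958809, 204993 bases from MYC, with mean fold enrichments of 7.22 in PB, 4.91 in RA, 8.5 in PB+RA and 3.27 in DMSO libraries and a PB difference of 1.10 (adjusted p = 0.000312).

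The strongest PB decrease was at a short, GC-rich region. At chr11:10951969-10954207 (60.5% GC), 71626 bases from ZBED5, fold enrichment was 5.46, 5.07, 4.41 and 3.93 in the PB libraries, 12.9, 14.7, 14.2 and 13.2 in the RA libraries, 10.7, 8.52, 6.88 and 9.32 in the PB+RA libraries, and 9.19, 11.7, 14.3 and 13.1 in the DMSO libraries. PB libraries lay under all others. The region fell by 1.35 on the log2 scale with PB (SE 0.13, adjusted p = 9.17e-06) and fell by 0.53 with PB+RA (adjusted p = 0.00543), and the RA difference was 0.25 (adjusted p = 0.266). Near INSIG1, which restrains cholesterol synthesis, the values were 5.02, 4.91, 4.4 and 3.07 in the PB libraries, 9.29, 9.85, 8.23 and 8.93 in the RA libraries, 3.6, 3.31, 2.71 and 6.34 in the PB+RA libraries, and 10.9, 9.78, 10.7 and 10.7 in the DMSO libraries. No PB or PB+RA library reached a DMSO library there. The INSIG1 region fell by 1.31 with PB (adjusted p = 0.000442) and fell by 1.56 with PB+RA (adjusted p = 7.62e-06). Differences of -1.24 near RHOU and -1.21 near TYRO3, a receptor tyrosine kinase, were also called with PB. The PB decreases near PRODH (adjusted p = 0.0224), H3-3A (0.0143) and ANKRD9 (0.0146) rested on PB replicates 3 and 4, with an adjusted p of 0.0692, 0.0503 and 0.0552 without PB replicate 3 and of 0.085, 0.058 and 0.0593 without PB replicate 4. PRODH also lost its call without DMSO replicate 3 (0.0677) or 4 (0.0597), and H3-3A without DMSO replicate 3 (0.055).

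With RA the largest increase was at chr12:115754692-115761447, in a stretch without protein-coding genes 632712 bases from TBX3, a T-box factor. The region overlapped a start site of another annotated transcript. Fold enrichment there was 7.13, 4.87, 4.25 and 4.73 in the PB libraries, 10.4, 10.8, 6.65 and 9.04 in the RA libraries, 18.0, 11.6, 12.9 and 11.3 in the PB+RA libraries, and 3.26, 3.66, 2.96 and 3.06 in the DMSO libraries. Every treated library exceeded every DMSO library. The log2 difference was 0.66 with PB (adjusted p = 0.00989), 1.53 with RA (SE 0.15, adjusted p = 6.61e-06) and 1.95 under PB+RA (adjusted p = 1.64e-07), and group mean concentration was higher by 1.45, 2.97 and 3.81. A region at chr2:43263639-43272357, 181388 bases from ZFP36L2, an mRNA decay factor, read 5.21, 4.48, 4.15 and 3.32 in the PB libraries, 16.2, 16.6, 11.4 and 13.7 in the RA libraries, 11.5, 9.5, 9.85 and 7.82 in the PB+RA libraries, and 5.95, 6.52, 4.57 and 5.6 in the DMSO libraries. It rose by 1.39 with RA (adjusted p = 6.61e-06) and by 0.69 with PB+RA (adjusted p = 0.000938), while the PB difference was -0.42 (adjusted p = 0.0574). In an intron of PPARG, a nuclear receptor that pairs with RXR, the values were 4.7, 4.64, 4.35 and 4.15 in the PB libraries, 9.6, 9.99, 7.19 and 8.08 in the RA libraries, 15.6, 9.36, 8.78 and 7.71 in the PB+RA libraries, and 3.13, 4.1, 3.85 and 4.56 in the DMSO libraries, and it rose by 1.2 with RA (adjusted p = 2.9e-05). Regions near FAM163A (1.39), in DKK2, a Wnt modulator (1.35), near BTRC, a ubiquitin ligase subunit (1.27), in GRK5, a receptor kinase, at chr10:121170791-121174120 (1.27), and near CALML3 (1.23) rose with RA as well. Of these RA increases, all but those in DKK2 and GRK5 overlapped a start site of some annotated transcript.

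Decreases with RA were found near genes of several kinds. At chr1:29793844-29803949, 230693 bases from PTPRU, a receptor phosphatase, fold enrichment was 14.4, 13.5, 8.0 and 7.13 in the PB libraries, 4.33, 3.6, 3.6 and 3.74 in the RA libraries, 4.97, 4.2, 5.44 and 4.2 in the PB+RA libraries, and 10.4, 13.2, 11.3 and 10.4 in the DMSO libraries. RA and PB+RA libraries lay under every DMSO library and PB libraries overlapped DMSO. The region fell by 1.53 with RA (adjusted p = 4.49e-06) and fell by 1.35 with PB+RA (adjusted p = 2.36e-06). In CSPG4, which encodes the NG2 proteoglycan, the values were 11.2, 10.6, 9.31 and 6.31 in the PB libraries, 3.77, 5.34, 5.02 and 5.07 in the RA libraries, 4.11, 4.03, 4.01 and 4.98 in the PB+RA libraries, and 13.2, 16.9, 8.94 and 13.3 in the DMSO libraries. The CSPG4 region fell by 1.38 with RA (adjusted p = 4.59e-05) and fell by 1.66 with PB+RA (adjusted p = 2.6e-06). Near ADRA2B, an alpha-2 adrenergic receptor, the 4 RA libraries read 3.66, 3.65, 3.61 and 3.68, against 9.02, 11.0, 10.5 and 7.52 in DMSO libraries, a difference of -1.33 (adjusted p = 1.29e-05). Regions near ACTA1, skeletal alpha-actin, LRRC32 and TRAPPC9 and one at chr8:54527961-54530340 were called lower with RA, with differences of -1.28 to -1.23. The region near LYN, a Src-family kinase, had the largest decrease with RA and with PB+RA (-1.66 and -1.89) and also fell with PB (-1.28), but no base of it lay under a peak of all 16 libraries, as was true of the chr8:54527961-54530340 region, and its group mean concentration differed from DMSO by -0.59, -1.35 and -1.78 with PB, RA and PB+RA.

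Among the named regions the largest increase and the largest decrease were both with PB+RA. Near ITGA1, the integrin alpha 1 gene, fold enrichment was 5.83, 5.7, 4.84 and 3.92 in the PB libraries, 8.38, 6.15, 5.99 and 5.65 in the RA libraries, 12.1, 9.19, 10.3 and 9.49 in the PB+RA libraries, and 3.63, 3.65, 3.53 and 3.34 in the DMSO libraries. All treated groups lay above DMSO without overlap, and PB+RA lay above both single drugs. The ITGA1 region rose by 1.45 with PB+RA (adjusted p = 2.45e-07) and 0.91 with RA (adjusted p = 5.86e-05), and its PB difference of 0.49 was under the size limit (adjusted p = 0.0139). Near IGFBP4, an insulin-like growth factor binding protein, the values were 8.02, 7.4, 6.12 and 5.46 in the PB libraries, 7.0, 6.52, 6.58 and 8.36 in the RA libraries, 3.41, 3.49, 3.75 and 3.69 in the PB+RA libraries, and 9.09, 13.0, 8.8 and 11.4 in the DMSO libraries. The IGFBP4 region fell by 1.62 with PB+RA (adjusted p = 2.39e-07), fell by 0.65 with PB (adjusted p = 0.00526) and fell by 0.52 with RA (adjusted p = 0.0132). Other PB+RA increases were near BTRC (1.61), in HRH1, the histamine H1 receptor gene (1.46), near DYRK1A, a kinase gene (1.43), near COL13A1, a transmembrane collagen gene (1.42), and at chr3:151283883-151287516 (1.43) and chr1:184186906-184192657 (1.40). Other PB+RA decreases were near ZNF536, a zinc finger repressor (-1.37), SSU72L5 (-1.6) and PPP1R1B, which encodes a dopamine-regulated phosphatase inhibitor (-1.34). The chr3 and PPP1R1B regions had no base under a peak of all 16 libraries.

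**Figure D5:**
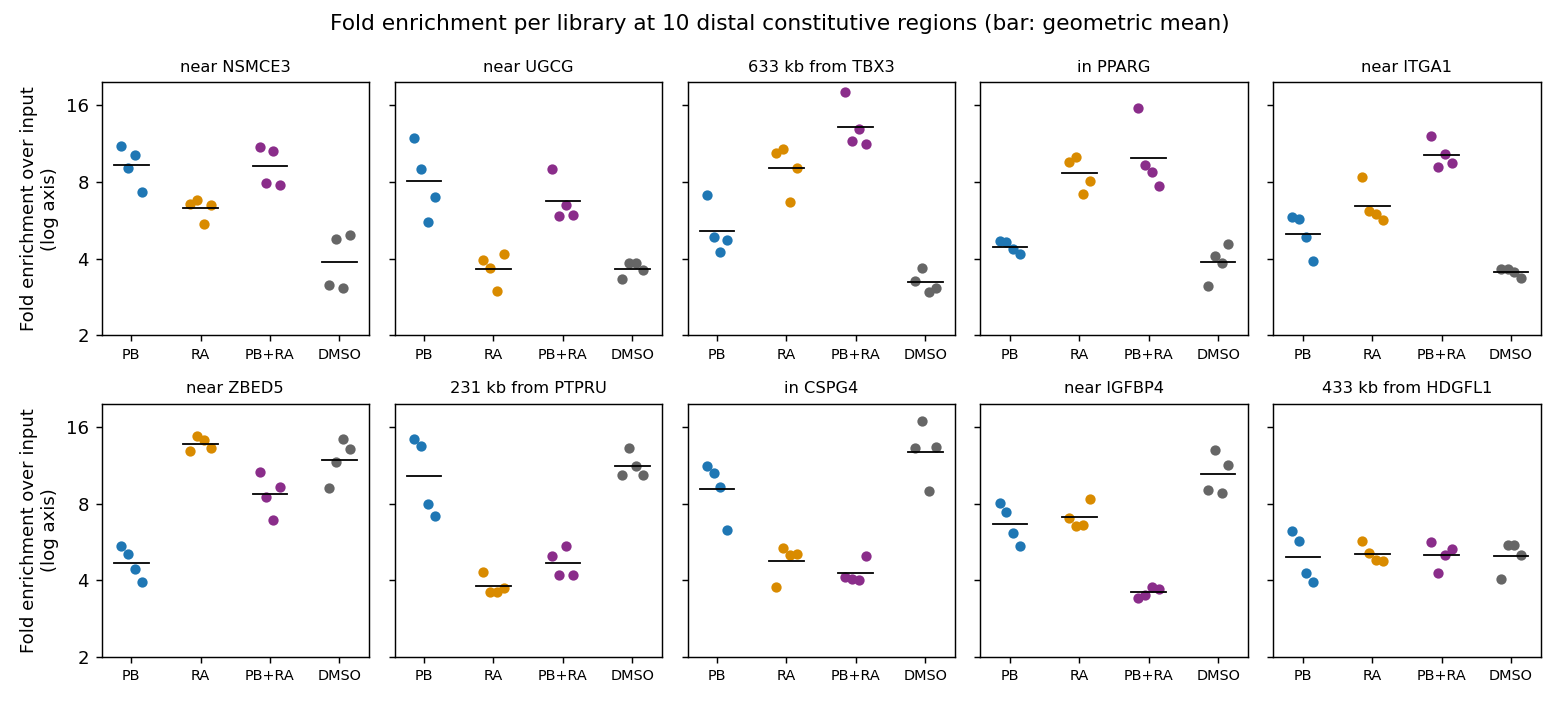
Fold enrichment over input (log axis) in each of the 16 libraries at 10 distal constitutive regions, with a bar at the geometric mean of each group, for 5 regions called higher (top) and 4 called lower under at least 1 treatment and 1 steady region (bottom). At the region 632712 bases from TBX3 the PB+RA libraries read 11.3 to 18.0 and the DMSO libraries 2.96 to 3.66, while at the steady region 432837 bases from HDGFL1 all libraries read 3.93 to 6.23.

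Whether PB+RA differed from the sum of both drugs was tested with the interaction term of the same fit. It passed at 1 member in the positive and 2 in the negative direction (0.00779% and 0.0156%), against 0.00377% and 0.0113% of all tested regions. For this limma term 1572 members had an unadjusted p under 0.05. That count stands without a share over all tested regions and is not read as a result. Near SCEL, fold enrichment was 5.61, 5.1, 4.16 and 4.15 in the PB libraries, 3.68, 4.69, 3.21 and 4.12 in the RA libraries, 8.0, 7.12, 5.71 and 7.33 in the PB+RA libraries, and 4.97, 5.79, 5.84 and 7.18 in the DMSO libraries (interaction 1.06, adjusted p = 0.0371). Group mean concentration near SCEL differed from DMSO by 0.25, 0.64 and 1.72 with PB, RA and PB+RA. The log2 fold enrichment differences were -0.33, -0.56 and 0.16, so the measures disagreed in sign with PB and with RA. Near SH2B3, an adaptor of cytokine signalling, it was 7.56, 6.78, 4.78 and 4.3 with PB, 5.13, 4.82, 4.68 and 4.5 with RA, 3.95, 4.1, 3.99 and 5.15 with PB+RA, and 3.27, 3.52, 2.99 and 3.15 in the DMSO libraries (interaction -1.10, adjusted p = 0.0371). In ACSF3, a mitochondrial acyl-CoA synthetase gene, the interaction was -1.01 (adjusted p = 0.0252). Each of these calls was lost on leaving out most single libraries, as given in the closing section.

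Gene lists were read against the 9289 members with a gene, of which 3.38% were higher and 1.61% lower with PB, 5.19% and 3.86% with RA, and 10.4% and 6.97% under PB+RA. Members nearest to genes of the adrenergic circuitry numbered 39, at 14 of 19 genes, led by EYA1 with 8, TCF4 with 6 and KLF7 with 4. With PB 1 was higher and none lower, with RA 1 higher and 1 lower, and with PB+RA 2 higher (5.13%) and 1 lower (2.56%), or 5 higher and 1 lower without centring. By group mean concentration 8 were higher and 13 lower by over 0.5 with PB+RA, against 2553 and 2419 of the 9289. The median log2 fold enrichment difference was 0.09, 0.02 and 0.10 with PB, RA and PB+RA, against 0.07, 0.03 and 0.03 over the members with a gene. A region in an intron of BCAS3 nearest to TBX2, a T-box factor, fell by 0.71 with PB+RA (adjusted p = 0.000552) and fell by 0.53 with RA, a call that was lost on size without DMSO replicate 2 (-0.47) or RA replicate 1 (-0.49). Its PB difference was -0.38 (limma adjusted p = 0.0696). Group mean concentration there differed from DMSO by -1.22, -0.97 and -1.58 with PB, RA and PB+RA. The PB increase of 0.51 in EYA1 was lost on size without DMSO replicate 2 (0.50) or 3 (0.45) or PB replicate 4 (0.46). Of the retino-sympathetic circuitry, described in neuroblastoma cells given retinoic acid, only SOX4 (2 members) and MEIS1 (1) had members. The region at chr6:21520361-21524655, 69327 bases from SOX4, read 5.69, 5.94, 5.98 and 5.85 in the PB libraries, 9.58, 6.79, 6.83 and 6.73 in the RA libraries, 11.1, 7.93, 12.2 and 10.6 in the PB+RA libraries, and 3.8, 5.16, 5.02 and 5.92 in the DMSO libraries. It rose by 0.99 with PB+RA (adjusted p = 0.000182) and by 0.63 with RA (adjusted p = 0.0147), and the RA call was lost without DMSO replicate 1 (adjusted p = 0.0509) or RA replicate 1 (0.0704).

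Members near genes of the retinoic acid response numbered 18, at 7 of 22 genes. With PB 1 was higher, near RET, the GDNF receptor gene (0.89, adjusted p = 0.00285, with a group mean concentration difference of 0.14), with RA 1 was higher, near CRABP1, a retinoic acid binding protein gene (0.66, adjusted p = 0.00371), and with PB+RA 1 was lower, near RXRA (-0.60, adjusted p = 0.00184). The PB difference near RXRA was -0.48, under the size limit (limma adjusted p = 0.0243). Group mean concentration near RXRA differed from DMSO by -1.27, -0.3 and -1.14 with PB, RA and PB+RA. At the CRABP1 region fold enrichment was 7.33, 7.22, 5.79 and 4.82 with PB, 7.93, 8.02, 6.83 and 6.49 with RA, 8.35, 6.42, 4.96 and 4.63 with PB+RA, and 4.56, 4.59, 3.95 and 6.02 in the DMSO libraries. The RA libraries lay above all DMSO libraries, and the PB and PB+RA libraries overlapped DMSO.

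Several members near catecholamine and dense-core vesicle genes rose with PB+RA, beside 970 higher (10.4%) and 647 lower calls among the 9289 members with a gene. Of 12 catecholamine members, at 5 of 9 genes, 5 were higher with PB+RA and none lower, at SLC18A2, the vesicular monoamine transporter gene (2), MAOA (2) and GCH1 (1), but this count was 1 to 5 over the other ways of centring and was 1 higher and 1 lower within GC classes. With PB 1 was higher, and with RA none was called. The SLC18A2 region at chr10:119003689-119011016 read 5.01, 6.06, 3.69 and 5.01 in the PB libraries, 4.1, 4.79, 4.05 and 4.26 in the RA libraries, 10.7, 6.17, 7.15 and 6.83 in the PB+RA libraries, and 4.07, 3.64, 4.37 and 3.83 in the DMSO libraries, and rose by 0.84 with PB+RA (adjusted p = 0.000196). Of 31 dense-core vesicle members, at 10 of 20 genes, 9 were higher and 1 lower with PB+RA, with 6 to 9 higher under the other ways of centring. They included 4 of 6 members at SCG2, a granin gene, and 2 of 7 at NPY, the neuropeptide Y gene. With RA 2 were higher and 2 lower, both lower ones near CHGA, the chromogranin A gene. The CHGA region at chr14:93349631-93354562 read 9.2, 8.09, 6.91 and 7.84 in the PB libraries, 3.1, 2.87, 3.45 and 4.19 in the RA libraries, 3.93, 2.79, 5.28 and 3.78 in the PB+RA libraries, and 4.87, 7.95, 6.22 and 8.42 in the DMSO libraries, and fell by 0.95 with RA (adjusted p = 0.00213) and fell by 0.89 with PB+RA (adjusted p = 0.00157). With PB 1 member, near NPY, was called higher (0.59, adjusted p = 0.026), a call lost without DMSO replicate 3 (0.0903) or PB replicate 1 (0.066), 3 (0.0595) or 4 (0.0534).

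Axon and neurite genes had 103 members, at 34 of 40 genes, of which 3 were higher and none lower with PB, 4 higher and 3 lower with RA, and 6 higher and 3 lower with PB+RA. Higher calls made up 2.91% (PB), 3.88% (RA) and 5.83% (PB+RA) of the list, none above the share over members with a gene. The PB+RA split was reversed within GC classes, with none higher and 8 lower. Both directions occurred within NCAM1, a neural cell adhesion gene. Its region at chr11:113058778-113066594 read 3.81, 3.95, 3.62 and 3.98 in the RA libraries, against 6.24, 6.49, 5.62 and 6.48 in the DMSO libraries, and fell by 0.65 (adjusted p = 0.000427). Its region at chr11:112882366-112886846 read 7.35, 6.67, 7.04 and 6.35 in the PB+RA libraries, against 3.85, 4.81, 4.3 and 3.77 in the DMSO libraries, and rose by 0.63 (adjusted p = 0.000638). Synapse genes had 45 members, at 19 of 34 genes, with 2 higher and 2 lower with PB (4.44% each), 1 higher and 3 lower with RA (2.22% and 6.67%), and 7 higher and 3 lower with PB+RA (15.6% and 6.67%). The PB+RA split was 3 and 2 within GC classes and 4 and 4 with the members alone centred and tested. At DLG2, a postsynaptic scaffold gene, 4 of 5 members were higher with PB+RA, and the median concentration difference of the 5 was 0.42, 1.19 and 1.54 with PB, RA and PB+RA. At GRIN1, an NMDA receptor subunit gene, the named region fell by 0.63 with PB (adjusted p = 0.00383) and fell by 0.89 with PB+RA (adjusted p = 3.09e-05), with no base under a peak of all libraries.

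Cell cycle genes had few members. There were 21, at 12 of 39 genes, with none called with PB, 1 lower with RA, and 2 higher (9.52%) and 1 lower (4.76%) with PB+RA. With 3.38% and 1.61% called over members with a gene, so small a list bears no reading of the absence of PB calls. A region 5310 bases from E2F1, which drives S-phase genes, read 5.96, 6.9, 5.72 and 4.33 in the PB libraries, 4.12, 4.61, 4.11 and 4.36 in the RA libraries, 5.22, 4.18, 5.51 and 4.02 in the PB+RA libraries, and 6.04, 7.43, 7.04 and 7.83 in the DMSO libraries. It fell by 0.68 with RA (adjusted p = 0.000809) and fell by 0.67 with PB+RA (adjusted p = 0.000326), and the PB difference was -0.33 (adjusted p = 0.0795). The median concentration difference of the list was -0.32 with PB, against -0.05 over members with a gene, while its median log2 fold enrichment difference was 0.09, against 0.07.

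Of 28 members near mesenchymal-state genes, 1 was higher with RA (near FOS), or 3.57% against 5.19% over members with a gene. With PB+RA 2 were higher and 2 lower (7.14% each, against 10.4% and 6.97%), a split of 2 and 4 with the members alone centred and tested. ZEB2, a mesenchymal zinc finger factor, had a region that rose by 0.78 with PB+RA (adjusted p = 1.32e-05) and had no base under a peak of all libraries. Of 20 near kidney and gland development genes, 2 were higher and 1 lower with PB, 1 lower with RA and 1 lower with PB+RA (EYA1 is on this list too). The PB shares were 10.0% and 5.0%, against 3.38% and 1.61% over members with a gene. The lower shares were 5.0% with RA, against 3.86%, and 5.0% with PB+RA, against 6.97%. With PB no call was left within GC classes or without the 3 libraries that stood apart, and with the members alone centred and tested 1 was lower. Within GC classes 1 member was higher and none lower under PB+RA. The called members included regions near WT1 (fell by 0.56 with RA, lost on size without DMSO replicate 1, -0.48) and PAX2 (fell by 0.90 with PB+RA, adjusted p = 0.0001). Of 11 near neural crest and Schwann genes, 3 were higher with PB+RA (27.3%, against 10.4% over members with a gene), SOX9 and CDH19 among their genes. None was called with PB or RA, and the PB+RA count was 1 to 3 under the other ways of centring. The SOX9 region at chr17:70145600-70148737 rose by 0.83 with PB+RA (adjusted p = 0.002). Housekeeping genes had 16 members, 2 higher with PB (12.5%, against 3.38% over members with a gene). With PB+RA 2 of them were higher and 2 lower (12.5% each, against 10.4% and 6.97%). Without the 3 libraries that stood apart, none was higher and 1 was lower with PB. As a check of the labelled cell type, immune and endothelial genes had 1 and 5 members, at 1 of 17 and 3 of 11 genes, and none was called. The neural crest and Schwann list, read in the same check, had its 11 members at 8 of 17 genes. Counts of members near genes cannot by themselves settle the cell type.

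The genes with most members were KALRN (22), KCNMA1, a calcium-activated potassium channel gene (19), AUTS2, LIMCH1, LRBA and MSI2 (16 each), TTC7B (15), and ARID1B, ASAP1 and CADM1 (14 each). At KALRN 2 members were higher and 1 lower with RA and with PB+RA, and none was called with PB. At AUTS2, linked to neurodevelopment, 4 of 16 were higher with PB+RA and 1 with RA, and the median concentration difference was 0.14, 0.5 and 0.91 with PB, RA and PB+RA. At KCNMA1 4 of 19 were higher and 1 lower with PB+RA, and no call was made with PB or RA alone. The median concentration difference at KCNMA1 was 0.18, -0.36 and -0.12 with PB, RA and PB+RA, so its median member was not higher with PB+RA. Over all members with a gene, 10.4% were higher and 6.97% lower with PB+RA. Members of one gene share its chromatin neighbourhood and are not independent of each other.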

How the data were processed

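H3K27ac ChIP-seq of 16 libraries (4 each of PB, RA, PB+RA and DMSO, grouped by sample titles) was used. The submitters' processing notes name fastp 0.12.4, Bowtie2 2.4.4 and MACS2 2.2.7.1. By these and the methods, the authors mapped trimmed reads to hg19 and, library by library with input as reference, called broad peaks. Each deposited peak carries the authors' fold enrichment over input (a ratio) and −log10 q-value. DiffBind 3.4 tables hold, for 92108 consensus regions (peaks in at least 2 of 4 replicates of a group), the authors' mean log2 concentration per group, which is normalized by the authors but not by length. They also hold the authors' fold changes, p-values and FDR, which were not used. Sequencing depth is unknown here, so no counting interval is given, and a shallow library calls fewer and narrower peaks.

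Distances were taken from 78577 protein-coding start sites of GENCODE release 44 on GRCh37, and 16 regions on other sequence names were left out. Genes are the nearest within 100 kb, and "intron", "exon" and "outside" refer to protein-coding genes. Deposited region starts count from 0 and are printed as deposited. Fold enrichment per region and library was the length-weighted mean over peak bases inside the region, on a log2 scale, centred on the median of the 26499 regions with a peak in all 16 libraries. One limma 3.58.1 fit (R 4.3.3, trend) covered the 4 groups, with no block for replicate number. It was tried on simulated data with independent noise in each region and library. Deviations shared between libraries, which the real data have, were not simulated, so that trial does not cover them. Values per library were compared by two-sided exact permutation tests over 70 arrangements (scipy 1.17.1), adjusted over 3 treatments. A library without a peak at some base gives no value there, so differences are read only among peak bases.

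Members and gene lists were chosen with earlier results of these data known. Regions were named by rule: per treatment the 8 largest increases and decreases called on fold enrichment whose concentration moved the same way by over 0.5 (1 per gene); the 6 highest in DMSO fold enrichment and in DMSO concentration per kilobase; the 6 steadiest of the upper 25% of DMSO concentration per kilobase; the 10 genes with most members; per list the leading genes and the called region with the smallest p; and up to 4 called interactions in each direction. Alternatives covered centring, GC classes, peak height, thresholds, member limits, a replicate block and leaving out libraries. Some items are not reported here.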

Additional observations from a re-analysis of the deposited data

Results flagged for a closer look

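The median fold enrichment of the members was 4.06, 4.36, 4.07 and 4.04 in the DMSO libraries, and replicate 2 stood apart from the other DMSO libraries by a gap of 0.904 of the group's range. At CSPG4, PB+RA replicate 4 read 4.98 beside 4.11, 4.03 and 4.01, a gap of 0.887 of the range. Such gaps (Dixon's test) were looked for in 52 groups of libraries, and chance gives about 1 in 20 groups. The PB effect differed with and without RA at 3 members by the interaction term of the limma fit, near SCEL (1.06, adjusted p = 0.0371), near SH2B3 (-1.10, adjusted p = 0.0371) and in ACSF3 (-1.01, adjusted p = 0.0252).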

How the results depend on the processing

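Counts of called members are given as higher and lower. Without centring, PB gave 303 and 89, RA 466 higher, PB+RA 506 lower, and no negative interaction was called. Peaks with −log10 q of at least 5 left 2113 members and 226 and 13 with PB, 44 and 13 with RA, 408 and 67 with PB+RA, and 0 interactions, and the coverage differences turned to 5.83 with PB and 10.7 with PB+RA. With no fold minimum the counts were 919 higher with PB, 1079 and 756 with RA, and 2451 and 1327 under PB+RA, and with a minimum of 1 they were 7 and 21, 34 and 29, and 128 and 72. Members under 4000 bases had 186 higher with PB, 228 and 158 with RA, 528 and 408 with PB+RA and 1 negative interaction, and in concentration 1030 and 991, 1010 and 1271, and 1786 and 1216. Members at least 50% covered in every library had 30 and 22, 27 and 31, 108 and 63, and 0 interactions, and in concentration 128 and 118, 109 and 147, and 280 and 108. These last settings hold fewer members. A concentration difference over 1 gave 471 and 343, 942 and 1079, and 1737 and 1162. Away from any annotated start site PB gave 86 lower, PB+RA 518 lower and no negative interaction, and beyond 10000 bases 1 negative interaction remained. GC classes gave 112 lower with PB and 5 and 5 interactions, quantile normalization 8 positive interactions, and the highest peak in a region 0. Centring the members alone, an alternative chosen after seeing the data, gave 204 and 319 with PB and 27 and 27 interactions. Leaving out PB replicates 3 and 4 and PB+RA replicate 3, also chosen after seeing the data, gave 0 interactions and a PB coverage difference of 1.0. The causes were not tested.

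Leaving out 1 library at a time gave 379 to 676 higher and 118 to 210 lower with PB, 536 to 883 and 395 to 562 with RA, 1292 to 1773 and 640 to 933 with PB+RA, and 0 to 1 and 0 to 4 interactions. The SCEL, SH2B3 and ACSF3 calls were lost in 13, 14 and 11 of these 16 fits. The distal minus start-site difference was 0.277 to 0.444 with PB, 0.0578 to 0.226 with RA and 0.181 to 0.368 with PB+RA, and the coverage difference -8.41 to -1.98, -6.05 to 0.34 (without DMSO replicate 4) and -7.19 to -0.804. Of 51 calls at regions named for their size or interaction, 45 were kept without centring, 48 with the highest peak, 45 without the 3 libraries, and 51 with quantile normalization, GC classes, the block or members alone.

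Neither labels nor methods say what same-numbered libraries share. Of 24 same-numbered pairs, 16 had a correlation of deviations over 0.1 (-0.257 to 0.599), but not every pair did, and 5 of 16 libraries correlated best with their own number, so the numbers were not used as pairs. With a replicate block the counts were 495 and 227 with PB, 727 and 504 with RA, 1479 and 830 with PB+RA, and 2 and 4 interactions, and with the block and GC classes 7 and 6 interactions. Sign-flipped pairs gave p = 0.25 with PB, 0.25 with RA and 0.125 under PB+RA for the distal minus start-site difference in an exact permutation test, where 0.125 is the smallest possible. Depth is unknown here, a region must hold a peak in every library to be tested, and group mean concentrations have no replicate error.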
